A study of Mus musculus with 6 samples.

Results

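One line of androgenetic haploid embryonic stem cells (AG-haESCs), wild-type (WT) replicate 2 at passage 18, was set against the 4 AG-haESC lines of later passage in a series of 6 mouse libraries. The lines were taken by the passage number in their labels, and no measured value entered that rule. The comparison itself was chosen with earlier results of these data known. The later lines were WT replicate 1 at passage 31 and double-knockout (DKO) replicates 1, 2 and 3 at passages 32, 31 and 29. The titles of the DKO lines name deletions at the H19 DMR and the IG-DMR, a pair of imprinting control regions. WT replicates 1 and 2 carry no deletion in their labels. All 5 lines are of C57BL/6 strain, were derived as haploid cells from androgenetic blastocysts, whose chromosomes are of paternal origin, and grew over feeder cells in 2i-containing ES medium. The sixth library, from round spermatids of testis, was a reference outside the comparison. Titles name WT replicate 2 and DKO replicate 3 AGH-2, WT replicate 1 AGH-OG3, DKO replicate 2 OG3-2 and DKO replicate 1 AGH-4. Whether lines whose names match or share OG3 descend from 1 embryo is not stated in the labels, so each SD measures only the spread between these libraries.

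There is 1 line on the early side, and 3 of the 4 later lines are DKO. Passage, line identity and genotype therefore cannot be told apart here, and no p-value is given. Each later line was instead set against its own other 4 lines by the same rule, as the background for WT replicate 2. These 5 comparisons share all of their lines and are not independent.

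In mammalian cells, DNA methylation sits mostly on the cytosine of CpG dinucleotides. Dnmt1 with its partner Uhrf1 copies it at each division, Dnmt3a and Dnmt3b add it anew, and Tet enzymes oxidise it. Most CpG-dense gene starts are unmethylated, while gene bodies and sequence between genes are usually methylated in somatic cells and in sperm. The 2i inhibitors, which block MEK and GSK3, are known to lower methylation across the genome of mouse ES cells. Reduced representation bisulfite sequencing (RRBS) cuts DNA at CCGG with MspI, so CpG-dense sequence is over-represented among the measured cytosines. A methylation level is the percentage of reads at a cytosine that remained unconverted.

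Read counts summed over all cytosine positions lay between 197728785 and 255726544 per line. They are not numbers of sequenced reads, since a read enters once for each cytosine it covers. The libraries held 2088612 cytosine positions on chromosomes 1 to 19 and X, and 264133 of these (12.6%) reached 10 reads in each of the 5 lines. Their median depth was 401 reads in WT replicate 2 and 337 to 396 reads in the later lines. All 116290 measured positions that fell inside RefSeq promoter sequences were cytosines of a CG (100%). No pair of lines was a copy, since 0.133% to 0.176% of common positions had identical counts. Reads were summed over 31233 tiles of 500 bp with at least 3 common positions each. The reads come from PCR and carry no molecular identifiers, and a read counts at each cytosine it covers, so Wilson 95% intervals cover counting error only and are too narrow where reads are copies.

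Sequences are shown for 3 gene starts with at least 3 measured cytosines in the promoter sequence, all called lower in WT replicate 2 by the rule of size given further on. They are those of Psen2, a presenilin of gamma-secretase, A1cf, an RNA-binding partner of the editing enzyme APOBEC1, and Vwa7, a protein with a von Willebrand factor A domain. A1cf and Vwa7 were chosen after their values were seen, for the measured cytosines in the sequence. The sequences are RefSeq promoters of build GRCm38.p6 (mm10), from 250 bases before to 50 after the start, at chr1:180245901-180246200 (minus strand), chr19:31868563-31868862 (plus strand) and chr17:35016329-35016628 (plus strand). Capitals mark each CG with a measured cytosine.
Psen2: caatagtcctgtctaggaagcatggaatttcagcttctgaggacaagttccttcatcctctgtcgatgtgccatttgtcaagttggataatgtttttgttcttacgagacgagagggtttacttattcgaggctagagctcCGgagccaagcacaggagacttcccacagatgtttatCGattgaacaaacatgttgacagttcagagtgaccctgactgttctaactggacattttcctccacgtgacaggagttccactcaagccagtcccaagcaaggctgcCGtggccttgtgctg
A1cf: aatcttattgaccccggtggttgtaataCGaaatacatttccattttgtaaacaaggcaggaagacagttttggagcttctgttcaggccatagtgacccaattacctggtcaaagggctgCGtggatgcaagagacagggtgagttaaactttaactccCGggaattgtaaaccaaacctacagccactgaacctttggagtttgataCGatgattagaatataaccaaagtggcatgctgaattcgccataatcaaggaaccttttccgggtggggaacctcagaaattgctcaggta
Vwa7: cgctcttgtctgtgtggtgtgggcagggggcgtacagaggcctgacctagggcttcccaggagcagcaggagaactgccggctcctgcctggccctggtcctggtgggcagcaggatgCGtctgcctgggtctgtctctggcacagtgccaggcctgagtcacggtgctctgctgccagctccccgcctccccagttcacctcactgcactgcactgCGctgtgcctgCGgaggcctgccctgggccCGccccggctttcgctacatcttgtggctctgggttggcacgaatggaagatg

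The Psen2 sequence holds 8 CG and 1 CCGG, that of A1cf 7 CG and 3 CCGG, and that of Vwa7 12 CG and 2 CCGG. CCGG, which reads alike on both strands, occurs in 17325 of 32619 RefSeq promoters of this length (53.1%), and their median number of CG is 7. At the A1cf cytosine at offset -41 from the start, levels were 0% in WT replicate 1, 0% in WT replicate 2, and 75.0%, 77.7% and 56.9% in DKO replicates 1, 2 and 3. Here both WT lines stood below the DKO lines, so the low value was not limited to WT replicate 2. At the Vwa7 cytosine at offset -2, levels were 99.4% in WT replicate 1, 0% in WT replicate 2, and 100%, 15.8% and 14.1% in DKO replicates 1, 2 and 3, where the 100% rests on 18 reads. At the Psen2 cytosine at offset -109, levels were 43.5% in WT replicate 1, 0% in WT replicate 2, and 33.0%, 66.7% and 0% in DKO replicates 1, 2 and 3. The value of WT replicate 2 rests on 23 reads, and DKO replicate 3 was also at 0%. Methylation of these gene starts thus varied among the later lines from cytosine to cytosine. WT replicate 2 was at or near 0% at all 11 of the measured cytosines shown, with 5.56% as its highest value. That follows from the choice of gene starts called lower in it. Later lines were also at 0% at some of these cytosines, such as DKO replicates 1, 2 and 3 at offset -222 of A1cf.

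WT replicate 2 was the least methylated of the 5 lines. The mean level over common positions was 4.85% in WT replicate 2, against 9.45% in WT replicate 1 and 5.99%, 8.47% and 5.97% in DKO replicates 1, 2 and 3. It lay below all 4 later lines, whose mean was 7.47% ± 1.77 (SD, n = 4), a difference of -2.62 points and a ratio of 0.649. The gap of -1.12 points to the nearest later line was smaller than the spread of 3.48 points among the later lines. Each later line against its other 4 differed by 3.13 points for WT replicate 1 and by -1.20, 1.91 and -1.22 points for DKO replicates 1, 2 and 3. So WT replicate 2 stood farther below the rest than any other line, but WT replicate 1 stood farther from the rest, on the upper side.

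Among the later lines, that of lowest passage, DKO replicate 3 (passage 29), had the lowest level, 5.97%. DKO replicate 1, at passage 32, had 5.99%, below both lines of passage 31. The later passages span only 29 to 32, and a link between level and passage was not tested. The later lines with OG3 in the title (AGH-OG3 and OG3-2) had a mean of 8.96% and the other later lines (AGH-4 and AGH-2) a mean of 5.98% (n = 2 each). WT replicate 2 differed by -4.11 points from the first pair and by -1.13 points from the second. Its ratio was 0.541 to the first and 0.811 to the second, so most of the distance was to WT replicate 1 and DKO replicate 2.

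The share of highly methylated cytosines set WT replicate 2 apart from all later lines. The share of positions above 90% was 0.628% in WT replicate 2, 1.88% in WT replicate 1 and 1.06%, 1.10% and 1.501% in DKO replicates 1, 2 and 3. That makes 1659 such cytosines in WT replicate 2 and 2796 to 4975 in the later lines, without overlap. Positions between 10% and 90% made up 11.9% in WT replicate 2, inside the range of 11.2% to 19.2% of the later lines. Positions at exactly 0% made up 71.8%, also inside the later range of 60.7% to 74.0%. Positions below 10% made up 87.43% in WT replicate 2, just above the later range of 79.24% (WT replicate 1) to 87.29% (DKO replicate 3). Of these shares, those above 90% and below 10% lay outside the range of the later lines in WT replicate 2, the latter only narrowly.

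Gene starts, gene bodies and sequence outside genes were all lowest in WT replicate 2. In 12142 tiles of gene bodies the mean level was 8.51% in WT replicate 2, 16.5% in WT replicate 1 and 10.6%, 14.98% and 10.6% in DKO replicates 1, 2 and 3, with a later mean of 13.2% ± 3.04 (SD, n = 4). In 5206 tiles outside genes it was 10.9% in WT replicate 2, 20.6% in WT replicate 1 and 13.4%, 18.5% and 13.3% in the DKO lines, with a later mean of 16.4% ± 3.70. In 13885 tiles at gene starts it was 0.717% in WT replicate 2, 1.57% in WT replicate 1 and 0.885%, 1.33% and 0.933% in the DKO lines, with a later mean of 1.18% ± 0.328. Tiles at gene starts here include tiles at 1 end of genes whose strand was not given, and some of these are 3′ ends. The ratio of WT replicate 2 to the later mean was 0.646, 0.666 and 0.608 in these 3 classes, so the relative difference was of like size in the 3 classes.

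**Figure D1:**
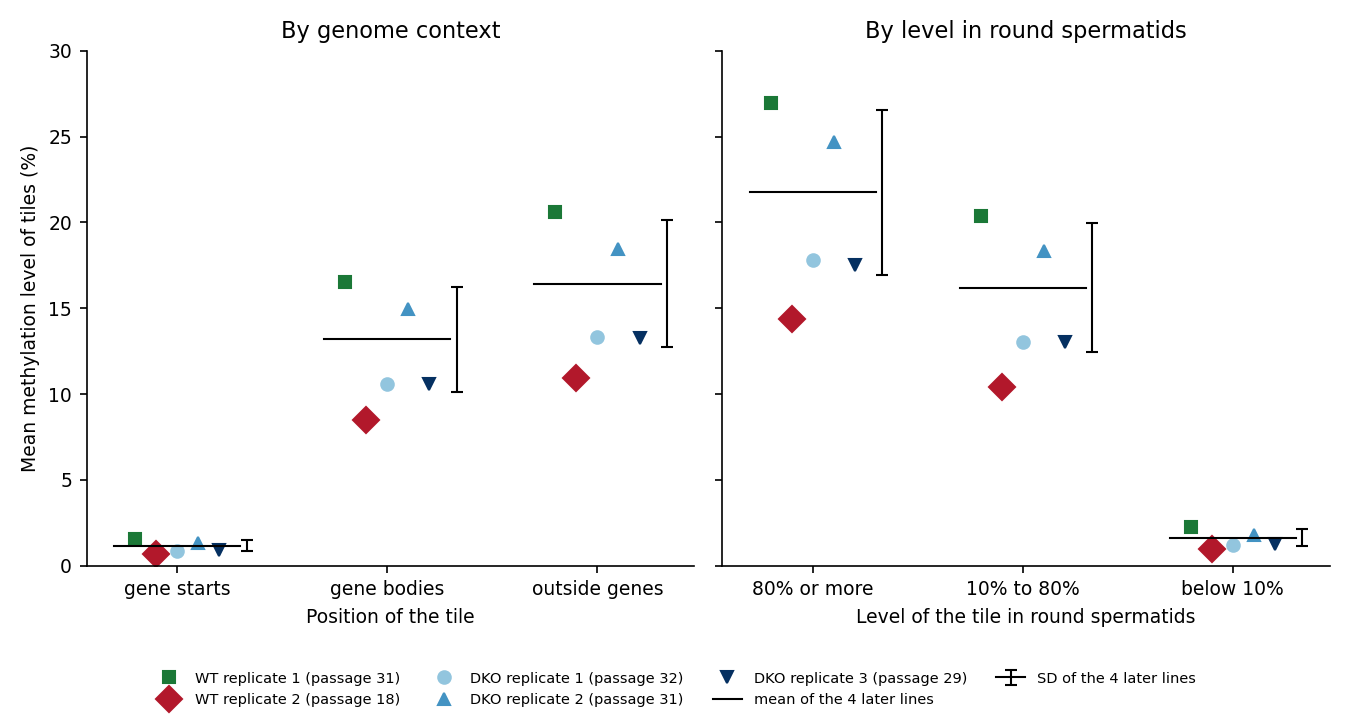
Mean methylation level (%) of 500 bp tiles in each of the 5 lines, by the position of the tile (left) and by its level in round spermatids (right). Points are lines, the horizontal line is the mean and the bar the SD of the 4 later lines. WT replicate 2 (red diamond) is the lowest point in each class, with 8.51% in gene bodies and 14.4% in tiles at 80% or more in round spermatids.

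Sparse and dense tiles showed the same order. With 3 to 4 measured positions, tiles had 8.76% in WT replicate 2 and 13.4% ± 3.08 (SD, n = 4) in the later lines. With 10 or more positions they had 0.403% and 0.666% ± 0.185. WT replicate 2 had the lowest mean tile level on 20 of 20 chromosomes examined (1 to 19 and X), with a ratio to the later mean from 0.595 to 0.738, the latter on X. Its level was highest on X, at 7.36%. In 1 Mb bins with at least 50 positions, WT replicate 2 was strictly lowest in 804 of 1422 (56.5%), against 308 (21.7%) for DKO replicate 3, 285 (20.04%) for DKO replicate 1, 15 for DKO replicate 2 and 10 for WT replicate 1. The low level was thus spread over the measured genome, while other lines were lowest in the remaining bins.

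At the scale of single tiles the picture was more mixed. Among 29763 tiles whose levels were not all equal, WT replicate 2 was strictly lowest in 18.8%, DKO replicate 3 in 17.8%, DKO replicate 1 in 13.8%, WT replicate 1 in 10.4% DKO replicate 2 in 4.81%. After each line was scaled to a common mean level, as described further on, WT replicate 2 was lowest in 13.7% and no longer the line most often lowest. Tiles at 50% or more numbered 379 in WT replicate 2, against 1624 in WT replicate 1 and 640, 1180 and 783 in DKO replicates 1, 2 and 3. Tiles at 0% numbered 9261 in WT replicate 2, between the 5771 of DKO replicate 2 and the 10194 of DKO replicate 3. Highly methylated tiles were therefore fewest in WT replicate 2, whereas fully unmethylated tiles were not most frequent there.

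Tiles were also split by the mean level of the other 4 lines, a split that by itself lowers the ratio of any line from bin to bin. In the 16319 tiles where the others averaged under 1%, WT replicate 2 had 0.1999% and a ratio of 2.17, and every line was above the others. In tiles where the other 4 lines averaged 1% to 5%, WT replicate 2 had 2.37% and a ratio of 0.898 to the others. The ratio was 0.842 at 5% to 10%, 0.678 at 10% to 20%, 0.596 at 20% to 40%, 0.609 at 40% to 60% and 0.543 in the 112 tiles at 60% to 100%, where WT replicate 2 had 36.7%. The same ratio in the last bin was 0.850 for WT replicate 1 and 0.729, 0.880 and 0.656 for DKO replicates 1, 2 and 3, so every line fell below the others where those were highest. WT replicate 2 had the lowest ratio of the 5 lines in each of these 7 bins. WT replicate 1 and DKO replicate 2 had ratios of 7.07 and 5.93 in the bin under 1%, and of 2.65 and 2.03 at 1% to 5%.

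**Figure D2:**
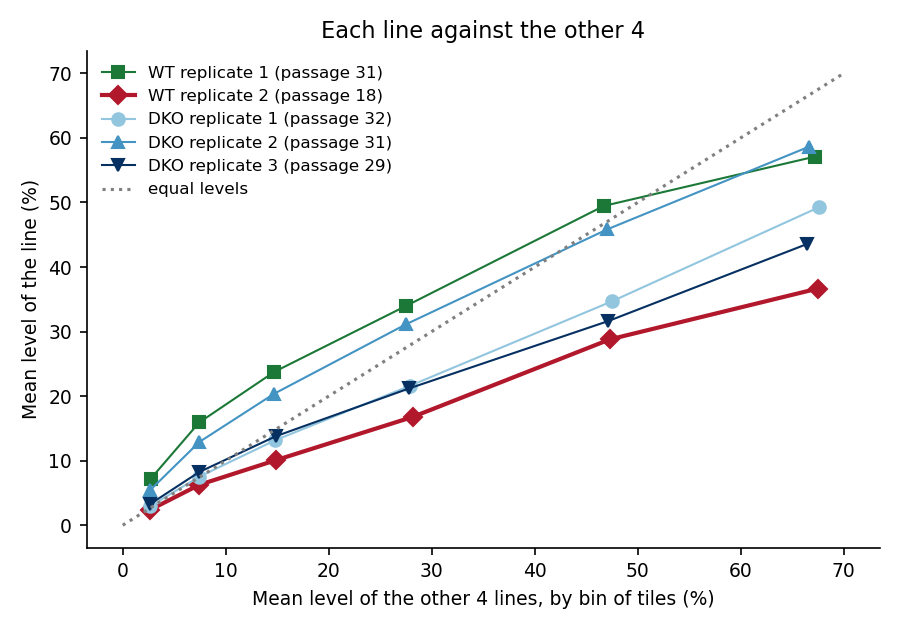
Mean level (%) of each line (vertical) against the mean of the other 4 lines (horizontal, %) in the 6 bins of tiles from 1% up, without the bin under 1%. WT replicate 2 (red) lies below the dotted line of equal levels in the bins drawn and reaches 36.7% where the others average 60% to 100%.

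Where the other 4 lines were each at 30% or more, WT replicate 2 had a median of 29.3% over 438 tiles and was below 5% in 51 of them (11.6%). The same share was 11.2% for DKO replicate 3 (43 of 383), 5.37% for DKO replicate 1 (18 of 335), 2.80% for WT replicate 1 and 2.68% for DKO replicate 2. A level near 0% at tiles methylated in all other lines was therefore about as frequent in DKO replicate 3, of passage 29. Single cytosines below 10% where the others exceeded 50% told the same, with 27.3% in WT replicate 2 (187 of 684) and 28.97% in DKO replicate 3 (175 of 604).

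Single regions were called by a rule of size. A region was called lower (or higher) in a line when it lay below (or above) all other 4 lines and at least 25 percentage points from their mean. Of 31233 tiles, 891 were lower in WT replicate 2 (2.85%). The same rule called 770 (2.47%) in DKO replicate 3, 550 (1.76%) in DKO replicate 1, 182 (0.583%) in WT replicate 1 and 169 (0.541%) in DKO replicate 2. WT replicate 2 thus had the most lower tiles, but its share was near that of DKO replicate 3. Higher tiles numbered 302 in WT replicate 2 (0.967%), the fewest of the 5 lines, against 563 (1.8%) in DKO replicate 1, 773 (2.47%) in DKO replicate 3, 1196 (3.83%) in DKO replicate 2 and 1897 (6.07%) in WT replicate 1.

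Scaling changed the split of these calls. Of the called tiles of WT replicate 2, 74.7% were lower. When each line was multiplied by 1 factor to a common mean tile level (1.43 for WT replicate 2), 552 tiles were lower and 1087 higher, so 33.7% were lower. A factor above 1 moves calls from lower towards higher by construction, and after scaling 30.7% to 38.7% of calls were lower in the other 4 lines. Of the 891 lower tiles 549 were also called after scaling. After scaling, DKO replicate 3 had more of both, with 680 lower and 1229 higher. So, with scaled levels, called tiles were not most frequent in WT replicate 2.

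**Figure D3:**
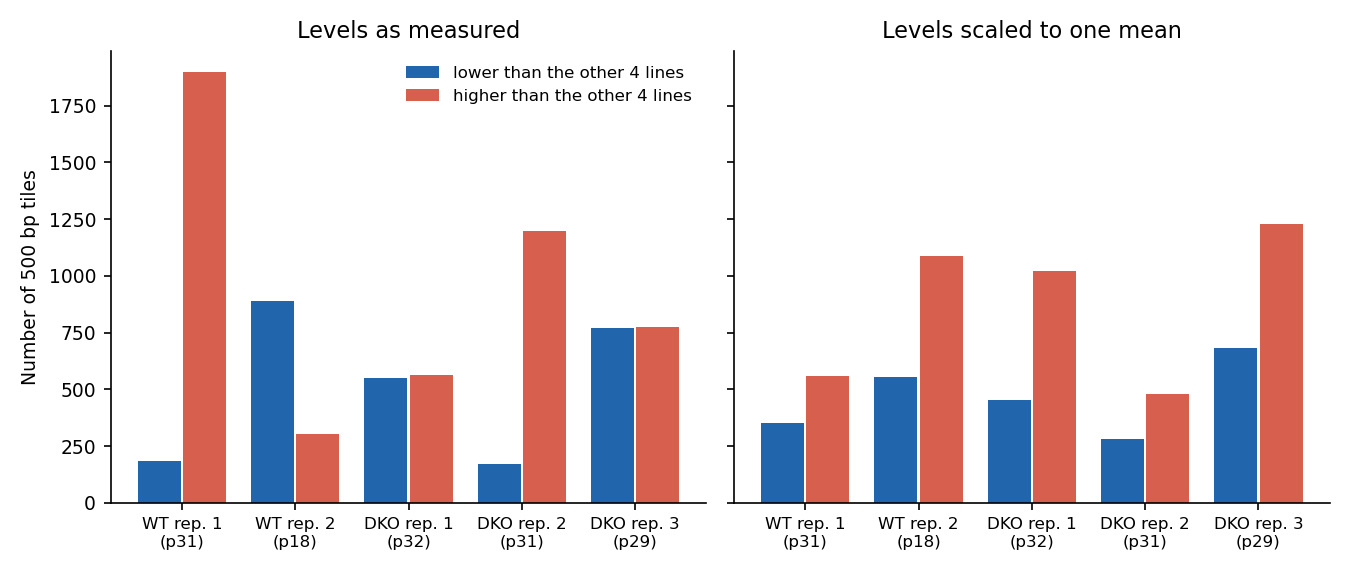
Number of 500 bp tiles called lower (blue) or higher (red) in each line against the other 4 lines, with levels as measured (left) and scaled to one mean tile level (right). As measured, WT replicate 2 has 891 lower and 302 higher tiles, and after scaling 552 and 1087.

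Lower tiles of WT replicate 2 numbered 534 in gene bodies (4.40% of such tiles), 328 outside genes (6.30%) and 29 at gene starts (0.209%), where levels near 1% leave little room for a lower call. DKO replicate 3 had 472, 263 and 35 lower tiles in the same classes and DKO replicate 1 had 330, 187 and 33, a like distribution. The higher tiles of WT replicate 2 were 184, 110 and 8. Tiles with 3 to 4 positions, 14245 of all 31233, gave 715 of the 891 lower tiles, so single calls rest on few cytosines. The same held in later lines, with 462 of 550 in DKO replicate 1 and 616 of 770 in DKO replicate 3. Prkca, Man1c1 and Tenm3 held 3 lower tiles each, the most of any gene. Prkca, which encodes a protein kinase C, had 3 lower of 6 measured tiles, with a mean level of 4.59% in WT replicate 2 against 33.1%, 18.5%, 22.7% and 24.7% in WT replicate 1 and DKO replicates 1, 2 and 3. Man1c1, a Golgi mannosidase gene, had 3 lower and 1 higher of 12 tiles, with 9.36% against 19.6% ± 3.50 (SD, n = 4). Tenm3, which encodes a teneurin of neuronal cell surfaces, had 3 lower and 1 higher of 17 tiles, with 9.31% against 16.8% ± 4.45. In Man1c1 and Tenm3 the direction thus differed between tiles of 1 gene.

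Named tiles were those with the widest gap between WT replicate 2 and the nearest later line, among tiles with at least 20 reads in every line. The first lay in Arhgap24 (chr5:102388001-102388500, 4 cytosines), a gene for a GTPase-activating protein. Its level was 0% in WT replicate 2, from 100 reads (interval 0% to 3.70%), against 66.0% in WT replicate 1 and 75.7%, 75.0% and 72.9% in DKO replicates 1, 2 and 3. The 4 later lines agreed closely here, at 72.4% ± 4.42 (SD, n = 4), and WT replicate 2 was lowest at 4 of 4 cytosines. A tile 66590 bp from Elmo1 (chr13:20674501-20675000), whose product is an adaptor in the engulfment of dying cells, had 1.59% in WT replicate 2 and 89.4%, 64.8%, 77.8% and 66.7% in WT replicate 1 and DKO replicates 1, 2 and 3. The Elmo1 value of WT replicate 2 comes from 63 reads (interval 0.281% to 8.46%).

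Ttn encodes the giant sarcomere protein titin. Its tile (chr2:76791501-76792000) had 14.7% in WT replicate 2 against 99.4%, 77.0%, 88.0% and 71.4% in WT replicate 1 and DKO replicates 1, 2 and 3, and 100% in round spermatids. A tile in Camsap1 (chr2:25938001-25938500), a gene for a microtubule minus-end protein, had 13.4% against 78.3%, 100%, 80.4% and 69.6%. A tile in S100a7l2 (chr3:91099001-91099500), of the S100 calcium-binding family, had 4.92% against 95.8%, 75.0%, 68.4% and 58.4%. In all 3 the later lines lay above 58% and WT replicate 2 below 15%.

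A tile 37839 bp from H60c (chr10:3218001-3218500), which encodes a ligand of a natural killer cell receptor, had 1% in WT replicate 2 from 1800 reads, against 50.4%, 59.8%, 67.3% and 59.2% in WT replicate 1 and DKO replicates 1, 2 and 3. It was lowest in WT replicate 2 at 4 of 4 cytosines and stood at 99.9% in round spermatids at the 2 cytosines measured there. A tile 29371 bp from Cxcl13 (chr5:95927501-95928000), a chemokine that attracts B cells, had 3.01% against 72.2%, 67.4%, 51.0% and 52.6%. A tile in Man1c1 (chr4:134637001-134637500) had 10.1% against 57.4%, 65.5%, 74.9% and 72.7%, with 100% in round spermatids.

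Higher tiles included cases of full methylation in WT replicate 2. A tile in Glb1 (chr9:114465001-114465500), the lysosomal beta-galactosidase gene, had 100% in WT replicate 2 from 415 reads (interval 99.1% to 100%), against 45.9%, 0%, 8.67% and 1.03% in WT replicate 1 and DKO replicates 1, 2 and 3. WT replicate 2 was highest at 5 of 5 cytosines. A tile in Hmcn2 (chr2:31424001-31424500), a gene of the extracellular matrix, had 100% against 33.3%, 49.2%, 29.7% and 33.3%. A tile in Fbxo46 (chr7:19136501-19137000), an F-box protein gene, had 100% against 43.6%, 20.6%, 9.64% and 0%, where the last value rests on 48 reads. WT replicate 1 was the nearest line for Glb1 and Fbxo46, and DKO replicate 1 for Hmcn2.

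A tile in Rbms3 (chr9:116935001-116935500), which encodes an RNA-binding protein, had 96.2% in WT replicate 2 against 0%, 0%, 16.3% and 10.5% in WT replicate 1 and DKO replicates 1, 2 and 3. WT replicate 2 was strictly highest at only 1 of its 3 cytosines. A tile in Slc13a3 (chr2:165466501-165467000), a dicarboxylate transporter gene, had 93.5% against 0%, 0%, 41.3% and 12.5%, and was highest in WT replicate 2 at 4 of 4 cytosines. A tile 510655 bp from Nap1l3 (chrX:121883501-121884000), of the nucleosome assembly protein family, had 93.4% against 11.2%, 10.9%, 32.3% and 4.34%. DKO replicate 2 was the nearest later line in all 3.

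The remaining named tiles were more even among the later lines. A tile in Elmo3 (chr8:105308001-105308500), a relative of Elmo1, had 78.2% in WT replicate 2 against 22.7%, 25.8%, 23.1% and 23.9% in WT replicate 1 and DKO replicates 1, 2 and 3. That is the tightest later group of the named tiles, at 23.9% ± 1.39 (SD, n = 4). A tile in Pced1a (chr2:130422001-130422500) had 65.8% against 13.0%, 12.8%, 9.07% and 3.18%, with 100% in round spermatids.

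**Figure D4:**
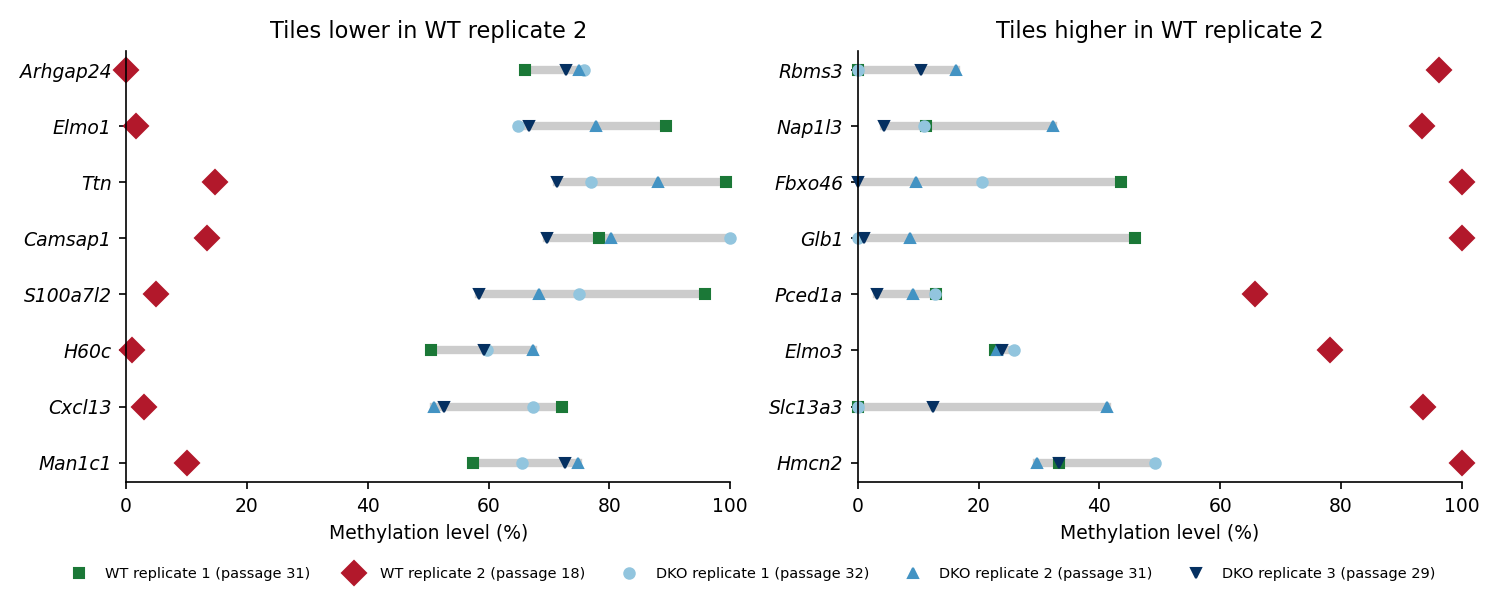
Methylation level (%) of the named tiles in each line, 8 lower (left) and 8 higher (right) in WT replicate 2, labelled by the gene they lie in or nearest to. Grey bars span the 4 later lines, and the red diamond of WT replicate 2 lies outside each bar, for example at 0% for Arhgap24 and 78.2% for Elmo3.

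Gene start windows reached from 1 kb before to 0.5 kb after an annotated start for 8715 genes. Where a gene had several annotated starts, the one with the most measured positions in its window was taken. For 2119 further genes, whose strand the tables did not give, the gene end with more measured positions was used, and some of these are 3′ ends. The mean level of the 10834 windows was 0.739% in WT replicate 2 against 1.59%, 0.913%, 1.37% and 0.999% in WT replicate 1 and DKO replicates 1, 2 and 3. Windows at 25% or more numbered 70 in WT replicate 2, and 213, 108, 169 and 129 in the same later lines. WT replicate 2 had the lowest mean and the fewest methylated windows.

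Called windows were rare in every line. There were 27 lower windows in WT replicate 2 (0.249%), fewer than DKO replicate 3 with 31 (0.286%) and DKO replicate 1 with 28 (0.258%), and more than DKO replicate 2 with 6 (0.0554%) and WT replicate 1 with 5 (0.0462%). It had 6 higher windows (0.0554%), against 28 (0.258%) in DKO replicate 1, 46 (0.425%) in DKO replicate 3, 48 (0.443%) in DKO replicate 2 and 78 (0.72%) in WT replicate 1. The lower share of its calls was 81.8% as measured and 32.1% after scaling, with 17 lower and 36 higher. Lower windows of WT replicate 2 were thus no more frequent than those of 2 later lines.

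Among lower windows of genes without a provisional name, the gap to the nearest later line was widest for Sctr, Samd11, Ano8 and Atp4b. Sctr encodes the secretin receptor, and its window (chr1:120063040-120064539, strand not given) had 2.63% in WT replicate 2 against 39.6%, 51.6%, 39.3% and 33.2% in WT replicate 1 and DKO replicates 1, 2 and 3. The window of Samd11 (chr4:156254843-156256342), a SAM-domain gene, had 4.30% against 34.9%, 65.9%, 29.9% and 84.6%, and 100% in round spermatids. The window of Atp4b (chr8:13396279-13397778, strand not given), a subunit gene of the gastric proton pump, had 11.9% against 35.7%, 58.7%, 41.7% and 36.8%. The later lines differed most among themselves in Samd11, at 53.8% ± 26.0 (SD, n = 4).

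Tbx5 is a transcription factor of heart and forelimb. Its window (chr5:119795514-119797013, strand not given, 7 cytosines) had 0.180% in WT replicate 2 against 25.4%, 20.4%, 22.3% and 60.8% in WT replicate 1 and DKO replicates 1, 2 and 3. Round spermatids had 0% at the 4 cytosines measured there. WT replicate 2 was strictly lowest at 1 and strictly highest at 1 of the 7 cytosines. Without DKO replicate 3 the difference was -22.5 points and the window was not called. The window of Ano8 (chr8:71475016-71476515, strand not given), of the anoctamin family, had 9.03% against 33.3%, 42.2%, 34.4% and 47.8%. The window of Dcst1 (chr3:89364754-89366253), which encodes a sperm membrane protein needed for fertilisation and shares its cytosines with Dcst2, had 0% from 922 reads against 42.7%, 18.1%, 23.6% and 42.2%. 

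The window of Fgb (chr3:83049364-83050863), the fibrinogen beta chain gene, had 14.0% in WT replicate 2 against 75.0%, 34.0%, 65.0% and 27.2% in WT replicate 1 and DKO replicates 1, 2 and 3. Depth was lowest here, with 56 reads in WT replicate 1 and 100 in WT replicate 2 (interval 8.53% to 22.1%). The Psen2 window (chr1:180245451-180246950), whose sequence is shown above, had 0.245% against 45.9%, 9.15%, 61.3% and 32.4%. Round spermatids had 100% there, measured at 3 of its 4 cytosines. The A1cf window had 0.258% against 24.7%, 29.8%, 54.3% and 6.76%, and the Vwa7 window 0.852% against 66.2%, 33.8%, 14.5% and 4.13%. DKO replicate 1 was nearest for Psen2 and DKO replicate 3 for A1cf and Vwa7, each under 10%, so a low level was not confined to passage 18.

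Of the 6 higher windows, 4 belong to genes without a provisional name. Foxi3 is a forkhead factor of ectodermal organs, and its window (chr6:70955606-70957105) had 39.6% in WT replicate 2 against 8.51%, 0.148%, 0.347% and 0.209% in WT replicate 1 and DKO replicates 1, 2 and 3, and 0% in round spermatids. The window of Bmp1 (chr14:70473555-70475054, strand not given), a procollagen protease gene, had 66.1% against 15.7%, 7.46%, 37.7% and 19.3%. The window of Vps72 (chr3:95122552-95124051, strand not given), which encodes a chromatin remodelling subunit, had 45.6% against 16.6%, 4.41%, 23.5% and 10.1%, and was not called as an unweighted mean (24.7 points). Wfdc15a (chr2:164199618-164201117), of the WAP-domain family, had 69.2% against 46.5%, 55.4%, 20.5% and 21.7%. The 2 WT lines were the highest pair for Foxi3, though far apart, and not for the other 3.

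Gene bodies, meaning positions inside a gene and outside every start window, were measured for 3571 genes with at least 10 positions. There were 17 lower bodies in WT replicate 2 (0.476%), the most of the 5 lines, against 11 (0.308%) in DKO replicate 3, 9 (0.252%) in DKO replicate 1 and 0 (0%) in WT replicate 1 and in DKO replicate 2. It had 3 higher bodies (0.084%), the fewest, against 6 (0.168%) in DKO replicate 1, 9 (0.252%) in DKO replicate 3, 24 (0.672%) in DKO replicate 2 and 73 (2.04%) in WT replicate 1. After scaling there were 8 lower and 25 higher bodies in WT replicate 2, and the lower share went from 85.0% to 24.2%.

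Ntng1, which encodes the axonal protein netrin-G1, had the widest gap among lower bodies. Its level was 2.47% in WT replicate 2 against 43.8%, 35.9%, 52.1% and 28.7% in WT replicate 1 and DKO replicates 1, 2 and 3. Most of its reads lay in 1 called tile (chr3:109993501-109994000) of 7 cytosines, with 4.33% in WT replicate 2 against 45.9%, 37.5%, 55.0% and 32.4%, and 100% in round spermatids at the 3 cytosines measured there. Summed over the 6 cytosines of the whole Ntng1 body measured in round spermatids, however, their level was 1.24%. Klf11, a Krüppel-like transcription factor gene, had 1.92% against 28.7%, 38.2%, 24.6% and 36.1%, with 99.9% in round spermatids. WT replicate 2 was strictly lowest at 3 of its 10 cytosines. Ltf, the lactoferrin gene, had 12.6% against 37.9%, 48.6%, 39.3% and 37.1%, with 100% in round spermatids at the 9 cytosines measured there. Of the 14 Ltf cytosines, WT replicate 2 was strictly lowest at 5 and strictly highest at 3. As unweighted means over positions, the differences from the later lines were -23.3 points for Ntng1, -20.4 for Klf11 and -14.2 for Ltf, in place of -37.6, -29.99 and -28.1, and none of the 3 bodies was then called.

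Eml6, of a family of microtubule-associated proteins, had 1.29% in WT replicate 2 against 31.3%, 26.0%, 42.9% and 25.03% in WT replicate 1 and DKO replicates 1, 2 and 3. Srgap3, a neuronal GTPase-activating protein gene, had 2.09% against 58.9%, 13.6%, 40.2% and 18.9%. Enpp7, the intestinal alkaline sphingomyelinase gene, had 3.15% against 43.5%, 25.3%, 31.8% and 20.1%. For all 3 genes WT replicate 1 or DKO replicate 2 was highest, and the later lines spread widely, with an SD of 20.8 points for Srgap3 (n = 4). Wdr81, a gene of endosome traffic, had 4.34% against 44.7%, 20.1%, 31.2% and 35.3%. Pfas, an enzyme gene of purine synthesis, had 7.67% against 44.6%, 40.4%, 37.3% and 21.7%, and was strictly lowest in WT replicate 2 at 3 of 12 cytosines. Several of these calls were near the threshold. Without WT replicate 1 the differences were -22.1 points for Srgap3, -22.6 for Enpp7 and -24.5 for Wdr81, and as unweighted means -24.3 for Srgap3 and -24.7 for Pfas, so these were then not called.

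The higher bodies were Rgs9, Fam135b and Fam124a. Rgs9, a regulator of G-protein signalling in photoreceptors and striatum, had 38.7% in WT replicate 2 against 12.1%, 10.2%, 17.7% and 5.87% in WT replicate 1 and DKO replicates 1, 2 and 3, and was highest at 6 of 10 cytosines. Fam135b had 53.3% against 40.8%, 15.8%, 29.7% and 22.1%, a difference of 26.2 points that was 10.4 as an unweighted mean, 22.5 without DKO replicate 1 and 24.6 without DKO replicate 3, none of which would be called. Fam124a had 32.8% against 3.44%, 3.40%, 2.83% and 4.41%, but as an unweighted mean of its 10 positions it was 4.26 points lower than the later lines (-4.26), so its direction rests on how reads were weighted.

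**Figure D5:**
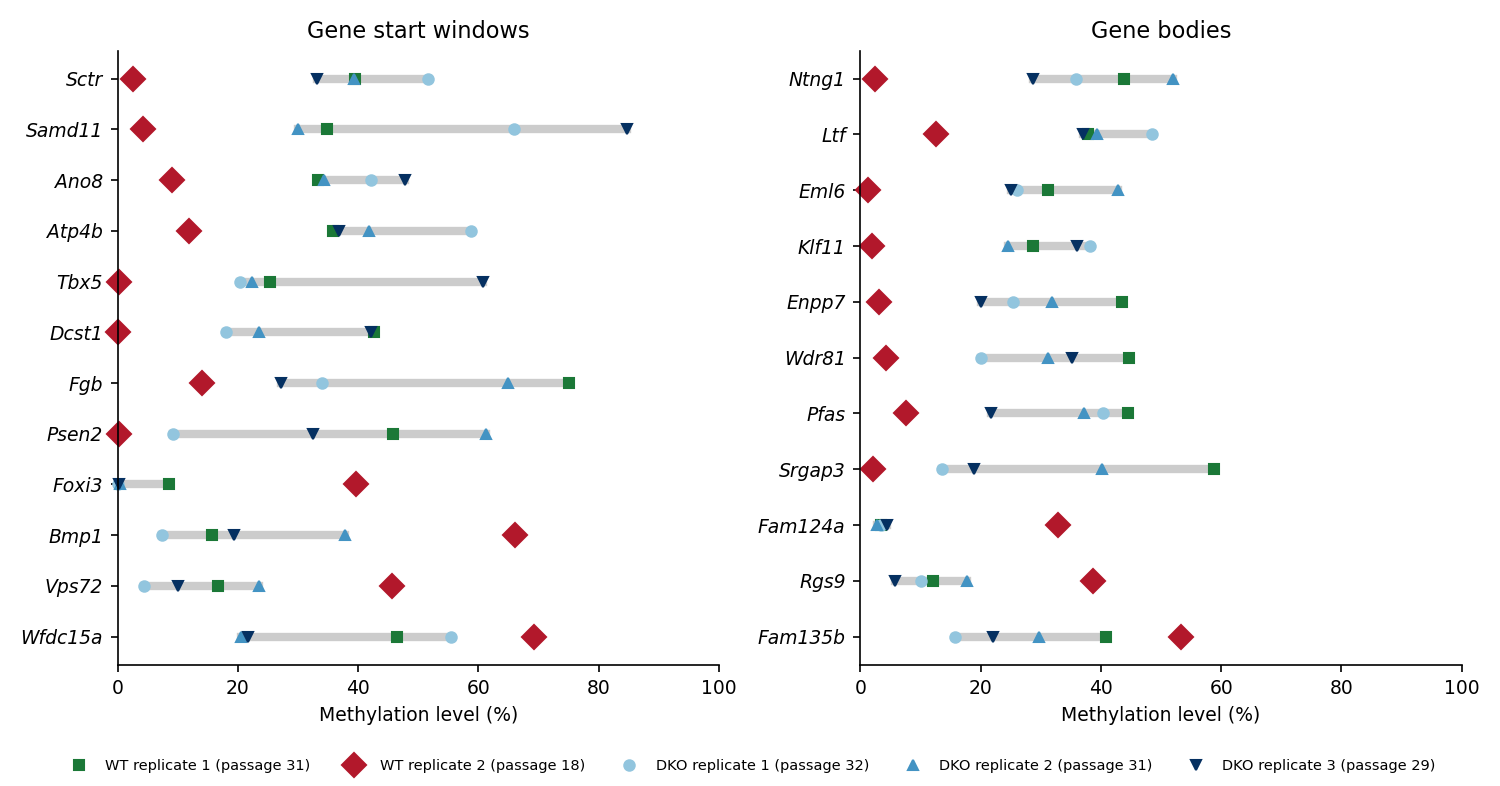
Methylation level (%) of the named gene start windows (left) and gene bodies (right) in each line. Grey bars span the 4 later lines. WT replicate 2 (red diamond) lies below the bar for 8 windows and 8 bodies, such as 2.63% for Sctr, and above it for 4 windows and 3 bodies, such as 39.6% for Foxi3.

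With scaled levels, 39 of the 39 named regions kept their direction and 34 were still called. Those no longer called were the Fgb window (-24.8 points) and the bodies of Ltf, Enpp7, Wdr81 and Pfas (-21.8 to -24.5 points). The named regions had been picked from the same data for their wide gap to the nearest later line. WT replicate 2 had the largest factor (1.43) of the 5 lines, so its higher regions stay higher by construction. A factor also changes little where WT replicate 2 was almost unmethylated, as in Arhgap24. The kept direction is therefore no independent check of these regions.

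Round spermatids, whose levels did not enter the rule, were highly methylated at most called tiles of every line. Positions here needed at least 10 reads in round spermatids too, and the rule was run again on the tiles left. Over 27005 tiles measured in all 6 libraries, 20.2% were at 80% or more in round spermatids and 71.0% below 10%. Of 611 such tiles lower in WT replicate 2, 69.6% were at 80% or more, with a median of 98.1%. Of 198 tiles higher in WT replicate 2, 62.1% were at 80% or more, with a median of 97.2%. The same share was 69.6% to 74.0% for lower tiles and 59.7% to 67.9% for higher tiles of the later lines, so called tiles of WT replicate 2 did not stand apart in this. A tile can be called lower only where the other 4 lines average at least 25%.

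In the 5455 tiles that spermatids methylate to at least 80%, the mean was 14.4% in WT replicate 2, 27.0% in WT replicate 1 and 17.8%, 24.7% and 17.5% in DKO replicates 1, 2 and 3. The later mean was 21.7% ± 4.81 (SD, n = 4), a ratio of 0.662. Of these tiles 34.5% were below 5% in WT replicate 2, against 34.1% in DKO replicate 3, 29.4% in DKO replicate 1, 16.6% in DKO replicate 2 and 16.4% in WT replicate 1. Tiles still at 50% or more made up 3.52% in WT replicate 2 and 5.87% to 14.8% in the later lines. In the 19175 tiles below 10% in spermatids, WT replicate 2 had 1.002% and the later lines 1.64% ± 0.486.

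None of 10 gene lists had a member called in its start window. Over all 10834 windows, 27 were lower and 6 higher, with a median difference of -0.0150 points from the later mean. Methylation of a gene start does not measure expression, so these values do not test the identity of the cells. A list member was measured where its window held at least 3 common positions, as for 11 of 23 pluripotency factors and 10 of 30 germline genes.

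Germline genes, many of which are methylated at their starts and silent in somatic cells, had the largest difference of the lists. The median over 10 measured members was -2.40 points, and 7 of them reached 5% in some line. Over all 10834 windows, 1102 reached 5% in some line. The list mean was 4.03% in WT replicate 2 against 15.7%, 4.56%, 9.42% and 8.71% in WT replicate 1 and DKO replicates 1, 2 and 3, so WT replicate 2 and DKO replicate 1 were close. Tuba3b, a tubulin gene, had 0% in WT replicate 2 against 67.5%, 4.65%, 38.4% and 0%, and was not called because DKO replicate 3 was also at 0%. Dazl, an RNA-binding protein of germ cells, had 4.75% against 25.8%, 7.92%, 9.04% and 15.4%. Taf7l, a germ cell TFIID subunit gene, had 11.3% against 20.4%, 17.6%, 24.1% and 42.7%. Dazl and Taf7l were lowest in WT replicate 2, but by less than 25 points from the mean. Mael and Ddx4, germ cell genes named here after their values were seen, went the other way, with 8.37% and 3.35% in WT replicate 2 and no more than 7.99% and 3.22% in the later lines. In all, 2 of the 10 members were below and 2 above all later lines. Over all 10834 windows, 1670 were below and 1216 above all later lines, so these counts do not set the list apart.

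Of imprinted genes, 19 of 34 were measured, with a median difference of -0.0294 points. Peg13, a paternally expressed RNA gene, had 11.9% in WT replicate 2 against 0%, 43.2%, 23.2% and 36.2% in WT replicate 1 and DKO replicates 1, 2 and 3, in a window of unknown strand. Both WT lines were below the DKO lines there. Zrsr1 had 4.38% against 0%, 0.0302%, 0.133% and 0.0465%. Rasgrf1 had 0.242% against 1.95%, 0%, 8.84% and 0%. Among the named members WT replicate 2 was lowest in none and highest in Zrsr1.

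Pluripotency factors were unmethylated in all 5 lines. The highest of the 11 measured windows was 2.81%, for Pou5f1 in WT replicate 1, and no window exceeded 0.0334% in WT replicate 2. Pou5f1, the central factor of ES cells, had 0% in WT replicate 2 against 2.81%, 0.0688%, 2.13% and 0%. Sall4 and Esrrb stayed under 1% in every line, at 0.0101% and 0.0197% in WT replicate 2. For the 6 of 17 measured genes of the methylation machinery, the highest level in any line was 0.541%, for Tet1 in DKO replicate 2, with 0.00642% in WT replicate 2. Dnmt3b and Uhrf2 were at 0% in WT replicate 2 and at most 0.174% elsewhere.

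Lineage genes differed little. Of 12 primitive endoderm genes 7 were measured, with a median difference of -0.564 points. Amn, a receptor subunit gene of visceral endoderm, had 0.394% in WT replicate 2 against 8.11%, 3.15%, 5.12% and 0.0505% in WT replicate 1 and DKO replicates 1, 2 and 3. Of 15 trophoblast genes 7 were measured. Krt7, a keratin gene, had 1.396% against 20.1%, 4.55%, 9.94% and 3.15%. Hand1, a transcription factor of trophoblast giant cells, went the other way, with 4.84% against 0.00672%, 0%, 0% and 0.637%. Krt18 had 0.0494% against 0.0606%, 3.29%, 4.94% and 1.80%. Of 15 primed epiblast genes 8 were measured, and Foxd3 had 1.397% against 0.0142%, 0.0385%, 7.19% and 0%.

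Feeder cells were grown with the lines, and 7 of 18 fibroblast genes were measured. Pdgfrb, a growth factor receptor gene, had 3.14% in WT replicate 2 against 20.2%, 52.2%, 0.134% and 0.417% in WT replicate 1 and DKO replicates 1, 2 and 3. Twist2 had 7.83% against 15.7%, 8.76%, 11.3% and 10.8%. The median difference of this list was 0.00727 points, and the part of feeder DNA in any level was not tested. Of 22 genes of the cell cycle and p53 pathway 14 were measured, and the highest level in any line was 1.60%, for Rb1 in WT replicate 1. Of 24 FGF and WNT pathway genes 17 were measured, and the highest level in any line was 1.95%, for Fgfr1 in DKO replicate 2.

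WT replicate 2 and DKO replicate 3, both named AGH-2, had the lowest Pearson's r of the 10 pairs of lines across tiles, 0.493, where tiles are not independent replicates. They differed by at least 25 points in 7.33% of tiles, with WT replicate 2 higher in 776 and DKO replicate 3 higher in 1514. WT replicate 1 (AGH-OG3) and DKO replicate 2 (OG3-2) had the highest r, 0.666, and differed in 8.82% of tiles. The r of WT replicate 2 was 0.569 with WT replicate 1, 0.545 with DKO replicate 1 and 0.597 with DKO replicate 2. In each of its 4 pairs WT replicate 2 was the lower line in more tiles than it was the higher, for example 2904 against 403 with WT replicate 1.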

How the data were processed

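The data are RRBS libraries of 5 AG-haESC lines and 1 sample of round spermatids. Per the labels' protocols, MspI-digested DNA was ligated to methylated adapters, size-selected, treated with bisulfite and amplified. Bismark 0.12.2 and mm10 come from the submitters' processing notes, and trimming and removal of duplicates are not stated there. The deposited files give methylated and unmethylated read counts per position, and the methylation fraction by the authors, which matched those counts within 1e-09.

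Positions with at least 10 reads in all 5 lines were kept. Levels of tiles, windows and gene bodies are methylated over total counts, summed over positions. Gene starts came from RefSeq tables of GRCm38.p6, the assembly of mm10; exons, introns and UTRs were not assigned. Positions carry no strand, so both cytosines of a CpG could appear; 1251 pairs of adjacent positions were among the 264133.

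Regions were called by the rule of size (25 points from the mean of the other 4 lines and outside their range). The rule was run on simulated data with read-sampling noise only and shifts larger than its threshold. Differences between lines were not simulated, so the simulation does not give the rate of false calls here. The named regions were the 8 lower and 8 higher by the gap to the nearest later line, with at least 20 reads in every line, 1 per gene, without chromosome 18 and without provisional names. Of each gene list, up to 3 members with the largest difference were named. The same naming rule was used for gene bodies, a class that was added after seeing the data, as was the scaling to one mean. The comparison, the members and the gene lists were chosen with earlier results of these data known. Alternatives were other read and position minimums, tile sizes, thresholds, unweighted means and leaving out each later line. Python 3.11.15, numpy 2.4.6, pandas 2.3.3 and scipy 1.17.1 were used.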

Additional observations from a re-analysis of the deposited data

Results flagged for a closer look

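Of 46 groups of later lines at named regions that were examined for 1 line far from the other 3, 2 showed such a line. Such a gap also arises by chance in about 5% of groups. In the Tbx5 window, DKO replicate 3 had 60.8% while the other later lines had 20.4% to 25.4%, so the gap took 0.876 of the range of the later lines. In the Foxi3 window, WT replicate 1 had 8.51% while the DKO lines had 0.148% to 0.347%, a gap of 0.976 of the range. WT replicate 2 lay outside the range of the later lines in both windows, below it in Tbx5 and above it in Foxi3, whether or not the distant line was counted. These 2 are not the only named windows with a distant line. In the Foxd3 window, DKO replicate 2 had 7.19% and the other later lines at most 0.0385%. The 2 of 46 is therefore not a rate over all named windows.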

How the results depend on the processing

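The mean level of WT replicate 2 was lower than that of the later lines in all 8 alternatives tried, by -3.12 to -1.96 points. Counts of called regions moved with the rule. With at least 5 positions there were 176 lower and 31 higher tiles and 6 and 2 windows. With 15 points there were 2014 and 626 tiles, 77 and 25 windows, and 184 and 14 gene bodies. With 40 points there were 177 and 95 tiles, 2 and 1 windows, and 0 and 0 bodies. With 10 points outside the range of the later lines there were 20 higher windows, and 63 lower and 9 higher bodies. With unweighted means there were 10 lower bodies and 1 higher body. With a minimum of 30 reads there were 197 higher tiles and 9 lower bodies, and with 5 reads 27 lower bodies. Scaled to one mean, there were 552 lower and 1087 higher tiles, 17 and 36 windows, and 8 and 25 bodies. Leaving out each later line in turn gave 25 to 46 lower and 6 to 13 higher windows, 15 to 37 lower and 2 to 6 higher bodies, and 21.6% to 28.7% of tiles lowest in WT replicate 2. Fewer lines to lie below or above make a call easier. The 46 windows came without DKO replicate 1, the 13 without DKO replicate 2, and the 37 bodies without DKO replicate 3. WT replicate 2 had the most lower tiles of the 5 lines in 12 of 13 alternatives, with scaling as the exception, but the most lower windows in 2 of 12. Of 39 named regions, 31 were still called as unweighted means, and Fam124a reversed to -4.26 points. No paired analysis was possible because there is 1 line on the early side and the result comes from no test. Depth limits mainly regions with few reads, such as the Fgb window with 56.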
